A study of Homo sapiens with 4 samples.

Results

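SPAG9 and 5 kinases of the c-Jun N-terminal kinase (JNK) pathway were followed through RNA-seq of U87MG cells, a line that the labels give as likely glioblastoma. The members were all alternative splicing events annotated to SPAG9, MAPK8, MAPK9, MAP2K7, MAP4K4 and MAP3K7, 132 of the 121269 deposited events. Skipped exons made up 89 of them, pairs of mutually exclusive exons 31, and alternative 3′ sites 10. There was also 1 alternative 5′ site and 1 retained intron. The genes were chosen by measured values of the contrast described here, the low inclusion of a SPAG9 exon after treatment, together with their place in the pathway. Differences between RBFOXi and SCRM in these genes are therefore given as a description. Calls of a fit across all genes are counted for them only beside the share of all events called, and support nothing.

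Cells of all 4 libraries were transfected with oligonucleotides at 2.5 µM with Lipofectamine 2000. RBFOXi, given to 2 cultures, is a decoy made of repeats of the RNA motif bound by the splicing factors RBFOX1 and RBFOX2. The scrambled oligonucleotide SCRM was given to the other 2 as the control. RBFOXi library 1 came from cells that received a Cy5-carrying form of the decoy according to its label, which is named for no other library, so the dye cannot be told apart from that library. The replicates are described as independent cultures of this 1 line. The study asked how the decoy affects splicing across the transcriptome.

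JNKs are activated by a relay of protein kinases. A MAP4K such as MAP4K4 and a MAP3K such as MAP3K7 (also called TAK1) act at the top, MAP2K7 (MKK7) phosphorylates the JNKs, and MAPK8 (JNK1) and MAPK9 (JNK2) phosphorylate transcription factors such as c-Jun. Scaffold proteins hold members of the relay together, and SPAG9 (also called JIP4) is such a scaffold, which also links cargo to microtubule motors. RBFOX proteins bind UGCAUG in introns. As a general pattern, binding downstream of an exon favours inclusion and binding upstream favours skipping.

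Sequences of exons on which the description turns are shown first: the SPAG9, MAP2K7 and MAP3K7 exons with the largest delta PSI of their genes, a MAP4K4 microexon whose level depends on its length, and the exon pairs of the JNKs. They were read from the GRCh37 genome (hg19, the build of the files) on the strand of the gene, 5′ to 3′. In the SPAG9, MAP2K7 and MAP4K4 runs the exon is in capitals, with 60 nt of intron on each side. The SPAG9 run lies at chr17:49053164-49053322 on the minus strand, the MAP2K7 run at chr19:7970633-7970800 on the plus strand and the MAP4K4 run, around a microexon, at chr2:102484431-102484559 on the plus strand.
SPAG9, 39 nt exon: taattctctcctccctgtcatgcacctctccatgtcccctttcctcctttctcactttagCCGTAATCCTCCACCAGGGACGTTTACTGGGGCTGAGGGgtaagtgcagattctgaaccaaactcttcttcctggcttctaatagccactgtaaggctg
MAP2K7, 48 nt exon: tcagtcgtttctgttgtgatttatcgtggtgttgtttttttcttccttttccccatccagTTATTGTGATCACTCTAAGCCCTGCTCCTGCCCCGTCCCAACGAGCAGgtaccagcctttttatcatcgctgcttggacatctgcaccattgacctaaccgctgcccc
MAP4K4, 9 nt exon: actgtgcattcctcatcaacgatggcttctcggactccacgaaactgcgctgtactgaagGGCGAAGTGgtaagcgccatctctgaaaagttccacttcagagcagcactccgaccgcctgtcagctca

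Around the 81 nt exon of MAP3K7 (chr6:91254271-91254351, minus strand), capitals mark UGCAUG, written TGCATG as DNA. The upstream run is chr6:91254352-91254491 and ends at the exon, and the downstream run is chr6:91254143-91254270 and begins right after it.
MAP3K7, end of the upstream intron: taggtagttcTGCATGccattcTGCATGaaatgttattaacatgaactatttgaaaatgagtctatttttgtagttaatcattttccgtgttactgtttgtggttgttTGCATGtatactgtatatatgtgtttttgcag
MAP3K7, 81 nt exon: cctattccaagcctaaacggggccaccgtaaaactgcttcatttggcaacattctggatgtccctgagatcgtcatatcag
MAP3K7, start of the downstream intron: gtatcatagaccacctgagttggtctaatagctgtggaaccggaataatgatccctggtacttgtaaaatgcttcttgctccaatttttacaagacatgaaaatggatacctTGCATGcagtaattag

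MAPK8 and MAPK9 each carry a pair of 72 nt coding exons of which a transcript holds 1, and both pairs lie in the part of the gene that encodes the kinase domain. The MAPK8 exons are at chr10:49632131-49632202 and chr10:49632557-49632628 on the plus strand, and those of MAPK9 at chr5:179674855-179674926 and chr5:179674439-179674510 on the minus strand. Capitals mark the bases that differ from the other exon of the same pair.
MAPK8, 5′ exon: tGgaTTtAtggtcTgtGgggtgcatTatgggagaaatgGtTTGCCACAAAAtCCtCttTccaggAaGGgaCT
MAPK8, 3′ exon: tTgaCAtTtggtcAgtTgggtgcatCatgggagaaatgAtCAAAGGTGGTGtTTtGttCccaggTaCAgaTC
MAPK9, 5′ exon: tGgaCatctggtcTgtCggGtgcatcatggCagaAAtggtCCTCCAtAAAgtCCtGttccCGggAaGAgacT
MAPK9, 3′ exon: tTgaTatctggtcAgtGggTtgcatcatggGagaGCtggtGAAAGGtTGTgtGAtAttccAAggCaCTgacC

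The exons of a pair were identical at 44 of 72 bases in MAPK8 (61.1%) and at 46 in MAPK9 (63.9%). Across the genes, the 5′ exons shared 57 bases (79.2%) and the 3′ exons 56 (77.8%), so an exon was more alike to the exon at the same place in the other gene than to its own partner.

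For each event the authors deposited inclusion counts, for reads that match the longer form, and skipping counts, for reads that match the form lacking the region. PSI, the proportion spliced in, was computed from these counts divided by the effective length of each form, so that 0 means always skipped and 1 always included. Delta PSI is RBFOXi minus SCRM, each as the mean of its libraries. An event was tested where every library had at least 5 counts, the mean was at least 20 per library and each form had at least 4 counts in all. Of the member events, 82 passed: 44 skipped exon events at 31 exons, 30 events of mutually exclusive exons, 6 alternative 3′ sites, 1 alternative 5′ site and the retained intron. The remaining member events, among them a 12 nt microexon of SPAG9 (chr17:49076837-49076848), did not pass and are not described further. Summed over skipped exon events, the 6 genes had 97064 and 122697 counts with RBFOXi, and 51087 and 141362 with SCRM. Reads that fit several events are counted in each. The mesenchymal and glioma genes VIM, CD44, TNC and NES carried counts in every library, with at least 179 in the largest event of each. GFAP, an astrocyte gene, had no skipped exon event, nor did RBFOX3, SYN1 and PTPRC, and the largest event of the neuronal gene SNAP25 had 364 to 808 counts. An absent event says nothing about the level of a gene.

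SCRM library 1 stood apart in where its counts lay along the genes. In exons with a PSI over 0.95 in every library, its inclusion counts, scaled to the skipped exon total, were divided by those of SCRM library 2. In SPAG9 the ratio was 0.683 at the exon 8533 nt from the 3′ end of the gene and 0.0721 at the exon 117410 nt away. It went from 1.02 to 0.186 in MAP4K4, from 0.551 to 0.144 in MAP3K7, from 0.661 to 0.314 in MAPK9, from 0.508 to 0.312 in MAPK8 and from 0.706 to 0.578 in MAP2K7. The same ratio of the RBFOXi libraries moved only between 0.607 and 0.768 in SPAG9. Over 3280 genes with at least 5 such exons, the ratio at the exon farthest from the 3′ end was a median of 0.414 times that at the nearest for SCRM and 1.00 times for RBFOXi, and it was lower at the far exon in 96.9% and 49.3% of genes. The depth behind a SCRM value thus falls towards the 5′ end in library 1. Delta PSI without that library is given below for the skipped exons that differed most and wherever its sign changed, which was the case for 9 of the 34 exons and regions printed by library. Its part in the differences was not tested beyond this.

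**Figure D1:**
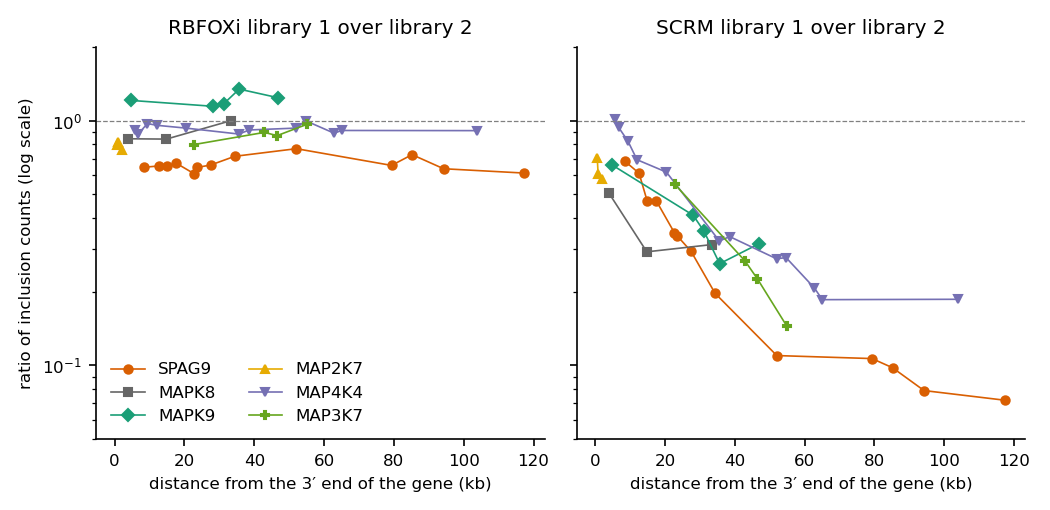
Ratio of scaled inclusion counts of library 1 to library 2 (log axis) against distance from the 3′ end of the gene in kb, for exons with a PSI over 0.95 in every library of the 6 genes, RBFOXi on the left and SCRM on the right. The RBFOXi ratios stay level along each gene, while the SCRM ratio of SPAG9 falls from 0.683 to 0.0721.

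SPAG9 held the largest difference among the 6 genes. Its 39 nt exon (chr17:49053224-49053262, minus strand) is coding in the 1 GENCODE transcript that has it and adds 13 codons in frame. PSI was 0.361 and 0.258 in the RBFOXi libraries and 0.853 and 0.818 in the SCRM libraries, so both RBFOXi libraries lay far below both SCRM libraries. The means were 0.310 ± 0.0724 and 0.836 ± 0.0249 (SD, n = 2 each), and delta PSI was -0.526, which ranks 2 from the lowest of the 39615 tested skipped exon events. Inclusion counts were 121 and 146 with RBFOXi and 229 and 458 with SCRM. Skipping counts were 288 and 563 with RBFOXi and 53 and 137 with SCRM. Inclusion was thus the minor form in the decoy-treated cells and the major form in the controls. Without SCRM library 1 delta PSI was -0.508.

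This exon was the single member event called by the fit across all events (limma, adjusted p under 0.05 with delta PSI at or beyond 0.1 in size), 1 of 44 tested skipped exon events of the 6 genes, where 0.0682% of all tested skipped exon events were called. With a pseudocount of 0.1, 0 of the 44 were called. The call of this exon was also lost when either SCRM library was left out, which leaves 1 control. With replicate number as a further term in the fit, the 48 nt exon of MAP2K7 was called as well. An unadjusted p under 0.05 (limma) was found for 4 of the 44, against 3.61% of all tested events. Both RBFOXi libraries lay below both SCRM libraries in 5 of the 44, against 16.5% of all tested events, and above them in 10, against 14.3%. The contrast chose the genes, so these counts are printed beside the background and nothing is read from them.

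The second varying exon of SPAG9, of 42 nt (chr17:49109042-49109083), was included in a minority of transcripts in all libraries. PSI was 0.239 and 0.231 with RBFOXi and 0.296 and 0.278 with SCRM. The RBFOXi values lay below the SCRM values by a delta PSI of -0.0524, or -0.0431 without SCRM library 1, which had 47 counts here. The other 5 tested SPAG9 exons had a PSI over 0.95 in every library. Their delta PSI lay between -0.00709 and -0.000313, each in its event with the most counts. Over its 2 tested events, the 95 nt exon had a mean delta PSI of -0.0102. The low inclusion at the 39 nt exon was therefore not seen in these exons. The flanking exons of 177 nt and 114 nt had PSI of at least 0.991 in all 4 libraries, each in its event with the most counts.

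By the pattern over the 4 libraries, the exons of other genes closest to the SPAG9 exon were those of NFYA, MPRIP and CTTN. The root mean square difference of PSI, over 4 libraries and with 1 exon per gene, was 0.0707 for the 87 nt exon of NFYA, 0.0708 for the 63 nt exon of MPRIP and 0.0875 for the 111 nt exon of CTTN. NFYA had PSI of 0.309, 0.221, 0.815 and 0.698 in RBFOXi libraries 1 and 2 and SCRM libraries 1 and 2, on 46 to 212 counts. MPRIP had 0.279, 0.356, 0.791 and 0.824 on 3901 to 6152 counts, and CTTN had 0.469, 0.374, 0.799 and 0.767 on 4163 to 6709. All 3 had both RBFOXi libraries below both SCRM libraries, which the measure of likeness favours.

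**Figure D2:**
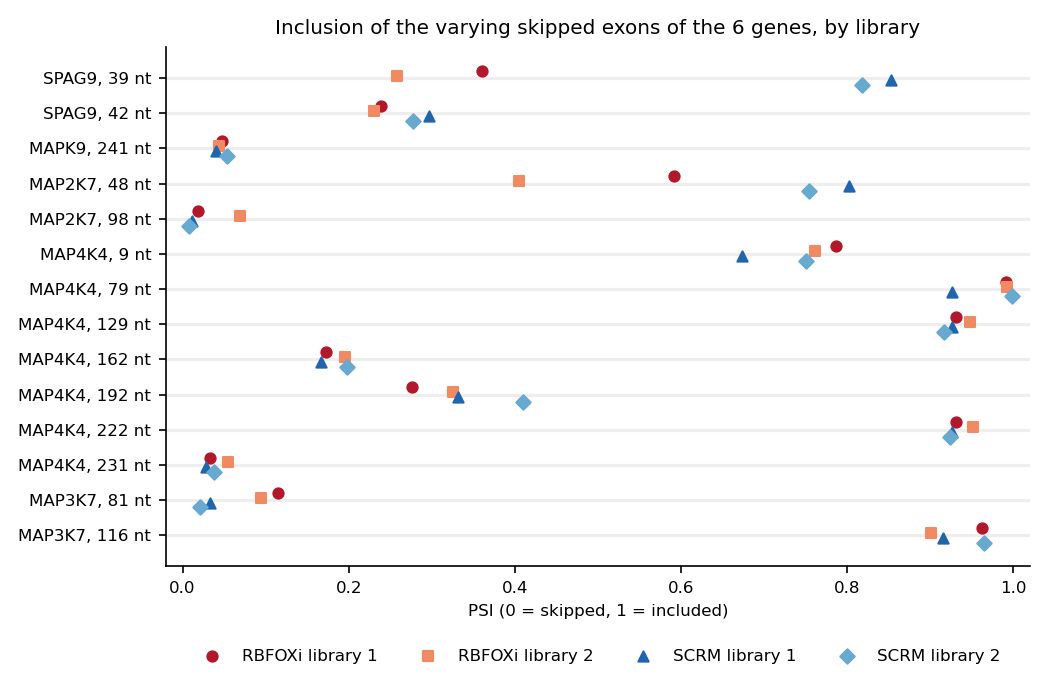
PSI of the 14 varying skipped exons of the 6 genes (rows, with gene and exon length) in each of the 4 libraries, RBFOXi in red and orange, SCRM in blue. The 39 nt exon of SPAG9 and the 48 nt exon of MAP2K7 are the rows in which the RBFOXi points lie farthest to the left of the SCRM points.

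Reads that skip the SPAG9 exon are counted again in other events, which are no separate evidence on it. None of the 31 member events of mutually exclusive exons held the 39 nt exon, but the junction that skips it was counted in 2 of them. To read these events, the order of their counts had to be settled. In skipped exon events with the same flanks, the inclusion counts equalled those of the exon nearer the 5′ end of the transcript in 6386 of 6386 plus-strand and 5701 of 5702 minus-strand events. PSI of a pair below is therefore the share of its 5′ exon.

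In the pair formed by the 172 nt exon (chr17:49057107-49057278) and the 114 nt exon (chr17:49054469-49054582) joined to the exon at 49052132, PSI was 0.692 and 0.662 with RBFOXi and 0.832 and 0.841 with SCRM. Delta PSI was -0.159, or -0.164 without SCRM library 1, and the groups did not overlap. The counts of the 114 nt form were 343 and 656 with RBFOXi and 101 and 235 with SCRM. Taking away the skipping counts of the 39 nt exon left 55, 93, 48 and 98. The same pair was listed a second time, joined to the exon at 49048068, without the skipping junction. There the 114 nt form had 57, 99, 48 and 98 counts and PSI was 0.931 and 0.929 with RBFOXi and 0.912 and 0.927 with SCRM. The remainder equalled this second readout in both SCRM libraries and lay just under it in the RBFOXi libraries. The counts that set the 2 listings of the pair apart were thus close to those of the skipping junction.

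The other event with this junction pairs the 177 nt exon (chr17:49052132-49052308) with the 150 nt exon (chr17:49048068-49048217). PSI was 0.388 and 0.388 with RBFOXi and 0.250 and 0.297 with SCRM, a delta PSI of 0.114, or 0.0908 without SCRM library 1. The 177 nt form had 572, 1018, 279 and 586 counts, and 284, 455, 226 and 449 after the skipping counts were taken away. Both exons had a PSI over 0.99 as skipped exons, so they sit side by side in most transcripts rather than replacing each other. The sign of this delta PSI and of the previous one follows from which form holds the junction.

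**Figure D3:**
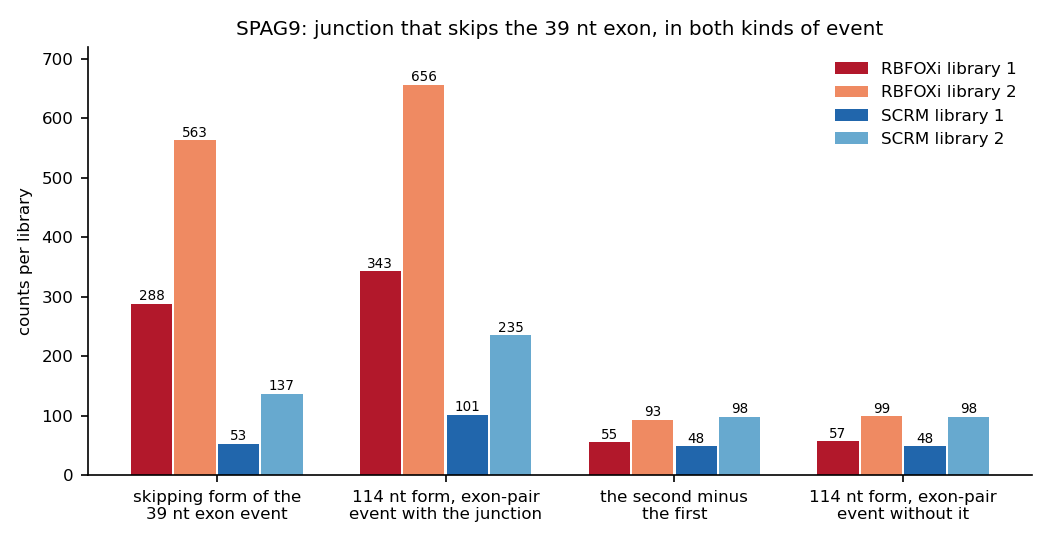
Counts per library in SPAG9 for the skipping form of the 39 nt exon, the 114 nt form of the exon-pair event that contains the same junction, the difference of these counts, and the 114 nt form of the exon-pair event without the junction. After subtraction, 55, 93, 48 and 98 counts remain, next to 57, 99, 48 and 98 in the event without it. Both events share these remaining counts, so the likeness is set by how they are counted.

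The remaining SPAG9 pairs varied little with the condition. The pair at 49054469 and 49052132 had PSI of 0.576, 0.578, 0.516 and 0.587 in the order RBFOXi 1, RBFOXi 2, SCRM 1, SCRM 2. The pair at 49063059 and 49062284 had 0.426, 0.393, 0.401 and 0.413. In both, the RBFOXi values overlapped the SCRM values. Nearer the 5′ end, the pair at 49133773 and 49118862 had 0.676, 0.688, 0.602 and 0.695, and the pair at 49156945 and 49133773 had 0.597, 0.621, 0.549 and 0.619. SCRM library 1 was lowest in 3 of these 4. Without it, delta PSI changed sign in all 4, from 0.0252, 0.00230, 0.0337 and 0.0250 to -0.0100, -0.00371, -0.0128 and -0.0103.

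Of the 30 tested pairs in the 6 genes, 16 joined exons that both had a PSI over 0.95 in every library as skipped exons, judged on events where no library had under 5 counts and the mean was 20 or more. These were 9 of 9 in SPAG9, 6 of 18 in MAP4K4 and 1 of 1 in MAP2K7, and over all genes 48.1% of tested pairs. The exons of such a pair are both present in most transcripts, and its PSI compares the counts of neighbours. SCRM library 1 had the lowest PSI of the 4 libraries in 8 of the 16 and in 66.5% of the 12579 such pairs of all genes. By limma and by the quasi-binomial test, 0 of the 30 pairs were called, as were 0% of all pairs, with an unadjusted p under 0.05 in 2 of the 30 and in 395 of the 26176. Without SCRM library 1 limma called 1 of the 30, the SPAG9 pair at 49057107, and without SCRM library 2 it called 2, that pair and the one at 49052132. Both RBFOXi libraries lay below both SCRM libraries in 7 of the 30, against 8.42% of all pairs, and above them in 3, against 16.0%.

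MAP2K7, a kinase that phosphorylates the JNKs, had the other large difference. Its 48 nt coding exon (chr19:7970693-7970740) adds 16 codons in frame and lies in 1 GENCODE transcript. PSI was 0.592 and 0.405 with RBFOXi and 0.802 and 0.754 with SCRM, on 102 to 323 counts. The groups did not overlap, but the RBFOXi libraries differed between themselves by more than the SCRM libraries did. The means were 0.498 ± 0.132 and 0.778 ± 0.0338 (SD, n = 2 each). Delta PSI was -0.280. It was -0.256 without SCRM library 1, -0.186 without RBFOXi library 2 and -0.373 without RBFOXi library 1. Skipping counts were 89 and 196 against 21 and 65.

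The 98 nt exon of MAP2K7 (chr19:7969336-7969433), which breaks the frame and is not coding in its annotated transcript, was rare. The downstream flank of its event is the 48 nt exon, so the skipping counts came only from transcripts that hold that exon. Its inclusion counts also take in reads within the 98 nt exon, whatever exon follows it. PSI was 0.0182 and 0.0692 with RBFOXi and 0.0112 and 0.00800 with SCRM, from at most 11 inclusion counts in a library. RBFOXi library 2 held those 11 and the other libraries 1 or 2 each. A pair of neighbouring exons near the 3′ end (7976135 and 7976321) had PSI of 0.634 and 0.625 with RBFOXi and 0.627 and 0.694 with SCRM, which overlapped. Its delta PSI of -0.0311 changed to -0.0647 without SCRM library 1. The 2 alternative 3′ sites and the retained intron had delta PSI between -0.0133 and 0.00377.

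In MAP3K7 the difference had the opposite direction. The 81 nt exon, coding throughout in 3 of the 9 GENCODE transcripts that have it, adds 27 codons in frame. Inclusion counts were 92 and 85 with RBFOXi and 12 and 20 with SCRM, against 343, 391, 167 and 453 skipping counts. PSI was 0.115 and 0.0951 with RBFOXi and 0.0336 and 0.0209 with SCRM. Skipping remained the major form in all libraries, and the RBFOXi values lay above the SCRM values by a delta PSI of 0.0777. The means were 0.105 ± 0.0139 and 0.0272 ± 0.00896 (SD, n = 2 each). The value was 0.0840 without SCRM library 1, and 0.140 with the plain share of inclusion counts, which is not divided by effective length.

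The 116 nt exon of MAP3K7 (chr6:91228166-91228281) had PSI of 0.962 and 0.901 with RBFOXi and 0.915 and 0.965 with SCRM. The groups overlapped, and the replicates of each group differed by more than the delta PSI of -0.00858, whose sign differed with the SCRM library used. The other 3 tested exons had PSI of at least 0.969.

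MAP4K4, a kinase at the top of the relay, had the most alternative exons, 7 varying skipped exons among 11 tested. The exon of 192 nt (chr2:102487956-102488147) had PSI of 0.276 and 0.326 with RBFOXi and 0.332 and 0.410 with SCRM, on 1373 to 3896 counts. The groups did not overlap, but RBFOXi library 2 and SCRM library 1 lay closer to each other than to their own replicates. Delta PSI was -0.0699, and -0.109 without SCRM library 1. The 9 nt microexon had PSI of 0.786 and 0.762 with RBFOXi and 0.673 and 0.751 with SCRM. Delta PSI was 0.0624, and 0.0236 without SCRM library 1.

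The level of that microexon depends on the effective lengths, 4 for inclusion and 86 for skipping in the deposited table. As a plain share of counts, inclusion was 0.146 and 0.130 with RBFOXi and 0.0874 and 0.123 with SCRM. Whether the microexon is in most or in few MAP4K4 transcripts can thus not be read from these values. The order of the libraries is the same on both scales by construction, since all libraries share the effective lengths.

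Next to each other lie the MAP4K4 exons of 162 nt (chr2:102477287-102477448) and 231 nt (chr2:102480283-102480513), both in frame. For these, PSI depended on the flanking exons that define the event. With the exon that ends at 102476326 upstream and the one at 102481392 downstream, the 162 nt exon had PSI of 0.173 and 0.196 with RBFOXi and 0.167 and 0.198 with SCRM. With the 231 nt exon as its downstream flank it had 0.782, 0.835, 0.828 and 0.815, and with the exon that ends at 102460773 upstream it had 0.960, 0.925, 0.939 and 0.932. RBFOXi and SCRM overlapped in each of these 3 readouts. Inclusion counts were 530, 670, 227 and 743 in the first, 362, 482, 157 and 517 in the second and 324, 370, 125 and 410 in the third. Skipping counts were 933, 1013, 417 and 1103, then 37, 35, 12 and 43, then 5, 11, 3 and 11. The level thus moved mainly with the skipping junction that an event counts. It does not show that inclusion of the exon depends on its neighbours. In the event with the most counts delta PSI was 0.00155, and -0.0143 without SCRM library 1.

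The 231 nt exon was rare in the event with the most counts, with PSI of 0.0329 and 0.0548 with RBFOXi and 0.0284 and 0.0374 with SCRM. With the 162 nt exon as its upstream flank it had 0.114 and 0.207 against 0.113 and 0.122. In the event that starts from the exon ending at 102472600 it had 0.359 and 0.597 with RBFOXi and 0.317 and 0.342 with SCRM, on 50 to 205 counts. RBFOXi library 2 was the highest in all 3 events of this exon. RBFOXi library 1 lay between the SCRM libraries in the first 2 and just above them in the last. The delta PSI of 0.149 in the last event therefore rested mainly on RBFOXi library 2, whereas it was 0.0110 in the event with the most counts.

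**Figure D4:**
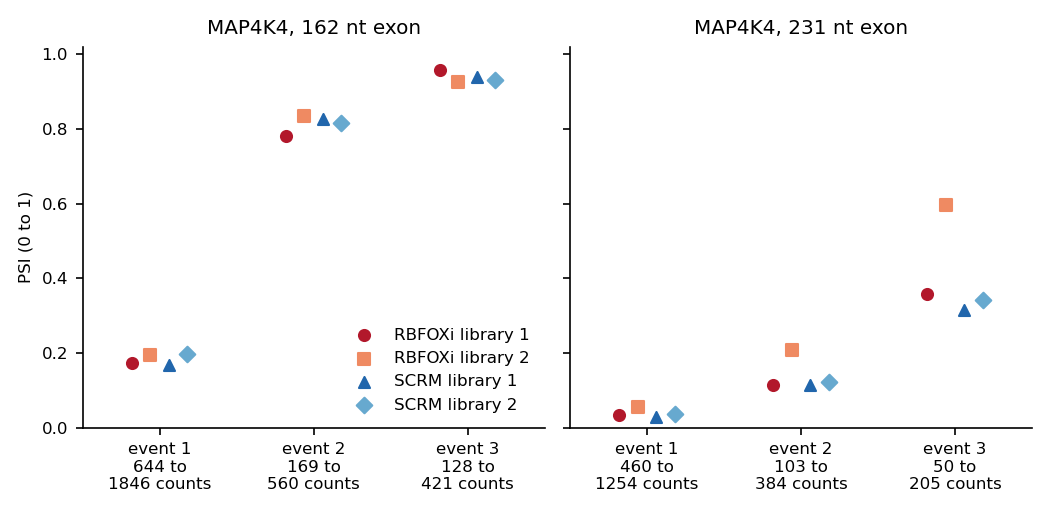
PSI of the 162 nt and 231 nt exons of MAP4K4 in each library, in 3 skipped exon events per exon that differ in their flanking exons, with the range of counts under each event. The level of the 162 nt exon goes from 0.167 to 0.960 between events while the 4 libraries stay together, and RBFOXi library 2 is the highest for the 231 nt exon. Events with a higher level count a rarer skipping junction.

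The remaining varying MAP4K4 exons were mostly included. The exon of 222 nt had PSI of 0.931, 0.952, 0.926 and 0.924 in the order RBFOXi 1, RBFOXi 2, SCRM 1, SCRM 2, and its 129 nt version, which begins at a later 3′ splice site, had 0.931, 0.948, 0.926 and 0.916. Each of these events sets its version against the same skipping counts of 39, 33, 19 and 60. These PSI are therefore not the shares of transcripts that hold the one or the other version. The 79 nt exon (chr2:102452362-102452440) had 0.992, 0.993, 0.927 and 0.999, so that it varied only in SCRM library 1, and delta PSI went from 0.0296 to -0.00635 without it. The choice between the 222 nt and 129 nt versions was level across conditions, with PSI of the longer version at 0.302, 0.338, 0.316 and 0.339. Adding 3 nt at the 3′ site at 102482890 had PSI of 0.789 and 0.804 with RBFOXi and 0.829 and 0.812 with SCRM. Adding 24 nt at the 5′ site at 102503700 had 0.181 and 0.138 against 0.174 and 0.155. Delta PSI of the 3 nt site was -0.0239, or -0.0151 without SCRM library 1. The groups of the 24 nt site overlapped, and its delta PSI of -0.00517 turned to 0.00426 without that library.

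All 18 MAP4K4 exon pairs had an absolute delta PSI of at most 0.0348. The 8 that represent their exon, by most counts, began at 102452362 (PSI 0.339, 0.354, 0.295 and 0.334), 102456281 (0.328, 0.307, 0.318 and 0.315), 102472439 (0.693, 0.684, 0.679 and 0.707) and 102476105 (0.815, 0.826, 0.837 and 0.827). The others began at 102476198 (0.816, 0.815, 0.838 and 0.813), 102477287 (0.860, 0.807, 0.872 and 0.864), 102499013 (0.608, 0.614, 0.538 and 0.617) and 102504240 (0.471, 0.484, 0.441 and 0.472). The 4 libraries lay farthest apart in the pair at 102499013, in which SCRM library 1 was the lowest. Without that library delta PSI changed sign at 102499013, from 0.0330 to -0.00653, and at 102476198, from -0.0101 to 0.00253. For the exons of 162 nt and 231 nt, whose skipped exon events share the same flanks, the pair gave a delta PSI of -0.0348 for the 162 nt exon against the 231 nt exon, and the skipped exon events gave 0.00155 and 0.0110.

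The JNK genes themselves differed little between the conditions. MAPK8 used the 3′ exon of its 72 nt pair almost throughout, with 4 and 12 counts of the 5′ exon against 280 and 365 of the 3′ exon with RBFOXi, and 2 and 13 against 118 and 455 with SCRM. PSI of the 5′ exon was 0.0141, 0.0318, 0.0167 and 0.0278. In MAPK9 the counts of the 5′ exon were 13 and 10 with RBFOXi and 7 and 12 with SCRM, against 1036, 1092, 525 and 1312 of the 3′ exon, for PSI of 0.0124, 0.00907, 0.0132 and 0.00906. Both genes thus showed the 3′ exon in all 4 libraries, and the delta PSI were 0.000735 and -0.000377.

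A 3′ splice site 5 nt apart near the end of the coding region is known to give the short and long C-terminal forms of both JNKs. Use of the upstream site, which adds the 5 nt, had PSI of 0.833 and 0.821 with RBFOXi and 0.829 and 0.791 with SCRM in MAPK8 (chr10:49642922-49642926), on 111 to 234 counts. In MAPK9 (chr5:179663527-179663531) it had 0.177 and 0.181 with RBFOXi and 0.164 and 0.172 with SCRM, on 274 to 557 counts. The 2 genes therefore favoured opposite sites in every library. The MAPK8 groups overlapped, and the MAPK9 groups differed by a delta PSI of 0.0108, or 0.00675 without SCRM library 1. The 241 nt exon of MAPK9 (chr5:179706796-179707036) had PSI of 0.0479 and 0.0445 with RBFOXi and 0.0409 and 0.0530 with SCRM. Its 66 nt exon was almost always skipped, with PSI of at most 0.0147, and its other 2 tested exons and the 166 nt exon of MAPK8 had PSI of at least 0.956. Of the 6 alternative 3′ sites, the alternative 5′ site and the retained intron of the 6 genes, 0 were called by limma, 0 by the quasi-binomial test and 0 had an unadjusted p under 0.05. Over all genes 0% of such events were called, and 3.32%, 3.59% and 1.74% had an unadjusted p under 0.05 (limma), in the same order of types.

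The letters around the exons were searched on the strand of the gene only, for UGCAUG and for GCAUG, which is contained in it. The SPAG9 39 nt exon had no UGCAUG in the exon or in either whole intron, 1206 nt upstream and 915 nt downstream. Its sole GCAUG began 744 nt into the downstream intron. The MAP2K7 48 nt exon had no GCAUG in the 300 nt on either side, and its nearest UGCAUG lay 1496 nt downstream. Around the MAP3K7 81 nt exon, UGCAUG occurred 3 times within 300 nt upstream, the last base of the nearest being 27 nt before the exon, and 1 time within 300 nt downstream, at nucleotide 113. The 192 nt exon of MAP4K4 had UGCAUG at nucleotide 245 downstream, and the 42 nt exon of SPAG9 had it 239 nt upstream.

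Of the 31 tested member exons, 2 had UGCAUG in the last 300 nt upstream and 3 in the first 300 nt downstream, and of all 30617 tested exons 8.16% and 8.36% had it there. GCAUG lay in these stretches of 5 and 4 member exons, and of 23.7% and 24.1% of all exons. A match is a description of the letters and not a binding site, and absence from a window says nothing on RBFOX. The 39 nt exon of SPAG9 and the 48 nt exon of MAP2K7 were thus without UGCAUG in these windows, the 42 nt exon of SPAG9 had it upstream, and the 81 nt exon of MAP3K7 had it on both sides.

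Varying exons of the 6 genes mostly kept the reading frame. Of the 14, 10 had a length that is a multiple of 3 (71.4%), against 45.4% of 10808 varying exons of all genes. The 222 nt and 129 nt versions of 1 MAP4K4 exon both count among these. Of the other tested exons, 9 of 17 in the 6 genes had such a length (52.9%), against 41.1% of 19809 over all genes. The 3 exons with the largest delta PSI in SPAG9, MAP2K7 and MAP3K7 were all in frame and coding in at least 1 transcript.

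The wider pathway was read from a list of 60 genes set by their roles, which holds none of the 6 genes. It covered scaffolds, MAP4K and TAO kinases, MAP3K with their TAB partners, MAP2K and MAPK, phosphatases, targets of the JNKs, and partners of the SPAG9 motor complexes. For 14 of the genes, among them JUN, JUND and FOS, the tables hold no event. Of 129 tested skipped exon events in 38 of the genes, 0 were called by limma (2 had an unadjusted p under 0.05, as had 1430 of all 39615). Of 79 exon pairs, 0 were called (1 had an unadjusted p under 0.05, as had 395 of all 26176). Among 12 alternative 3′ sites, 8 alternative 5′ sites and 6 retained introns, 0 were called, with 0, 1 and 0 at an unadjusted p under 0.05. Of all tested events of these types, 3.32%, 3.59% and 1.74% had an unadjusted p under 0.05 (limma). The quasi-binomial test also called 0 in each of these. No gene of the list thus passed the threshold in either direction. Over all genes limma called 0.0682% of tested skipped exon events and 0% of the other types. The 0 calls on the list lie near that share, so no absence of change in the pathway is read from them.

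The median delta PSI of the skipped exon events was -0.00196 on the list and -5.65e-05 over all tested events, and the median absolute value was 0.0112 against 0.00803. Both RBFOXi libraries lay below both SCRM libraries in 32 of the 129 events (24.8%) and above them in 14 (10.9%), beside 16.5% and 14.3% of all tested events. By role, the counts below and above were 9 and 2 of 26 events for the MAP4K and TAO kinases, 8 and 2 of 23 for targets, and 7 and 6 of 35 for the MAP3K. They were 4 and 3 of 18 for MAP2K and MAPK, 2 and 1 of 12 for scaffolds, 1 and 0 of 11 for motor partners, and 1 and 0 of 4 for phosphatases. Several events share an exon, so these are not independent items.

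MAP3K9, an upstream kinase of the JNK relay, had the largest delta PSI of the list among events in which the groups did not overlap. Its 69 nt exon (chr14:71202678-71202746) had PSI of 0.161 and 0.218 with RBFOXi and 0.540 and 0.401 with SCRM, on 62 to 118 counts. Delta PSI was -0.281, with a log2 odds difference that did not pass the test (limma, adjusted p = 0.99995). BCL2L11 (BIM), a cell death protein that JNKs phosphorylate, followed with 2 exon pairs. The pair that begins at 111907621 had PSI of 1.00 and 0.868 with RBFOXi and 0.692 and 0.787 with SCRM (delta PSI 0.195, on 21 to 73 counts). The pair that begins at 111881627 had 0.732 and 0.562 against 0.515 and 0.431 (0.174, on 18 to 48 counts). A 27 nt alternative 5′ site of MAPK10, the neuronal JNK3, had PSI of 0.430 and 0.531 against 0.292 and 0.316, a delta PSI of 0.177 on 17 to 44 counts. The 3 nt alternative 3′ site of MAPK8IP3, a scaffold related to SPAG9, had 0.457 and 0.397 against 0.600 and 0.563, a delta PSI of -0.155 on 10 to 63 counts. None of these passed the test (limma, adjusted p between 0.99485 and 0.99998), and apart from MAP3K9 they rested on fewer than 100 counts in every library.

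**Figure D5:**
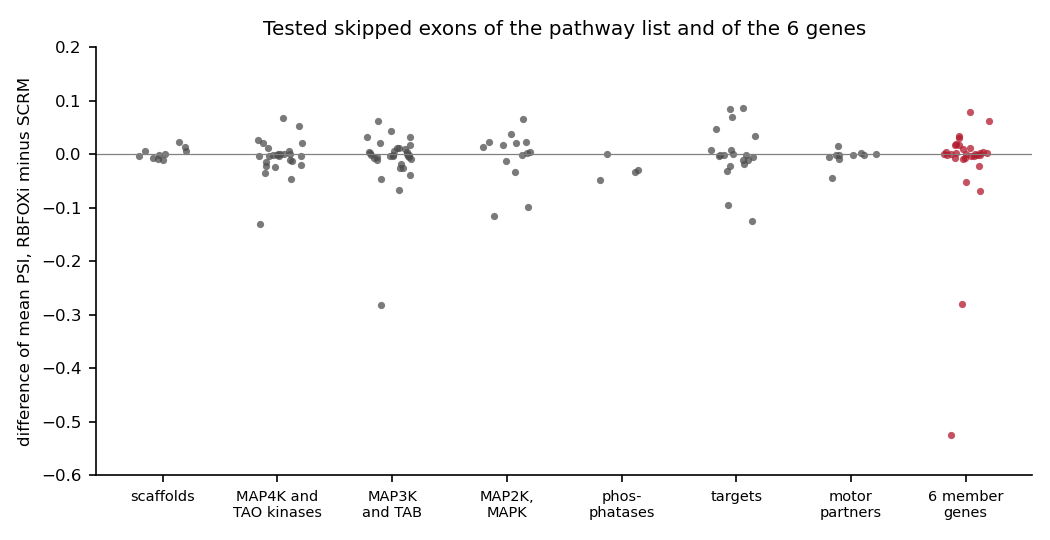
Delta PSI (RBFOXi minus SCRM) of the tested skipped exons, 1 point per exon, for the 7 roles of the pathway list in grey and the 6 member genes in red. The SPAG9 exon at -0.526 lies apart, and the 48 nt exon of MAP2K7 (-0.280) and the 69 nt exon of MAP3K9 (-0.281) have nearly the same value.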

How the data were processed

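RNA-seq of U87MG cells (2 RBFOXi and 2 SCRM libraries) was analysed from 5 deposited tables of splicing events. The authors mapped paired-end reads, kept unique alignments to the hg19 build (STAR 2.4.2a), and ran rMATS with the UCSC known genes. The deposited cells used hold comma-joined pairs of raw counts, 1 for each replicate in the order that the labels give, and the effective length of each form as a number of positions. The authors' own p-values, FDR and inclusion levels were not used, and values were taken as deposited, without normalization. Counts over skipped exon events were 114415530 to 136097319 per library.

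The log2 odds of inclusion (pseudocount 0.5) were fitted on each whole table in R 4.3.3 (limma 3.58.1), and the condition was the only term. The prior variance followed a trend on how much information an event carries, and Benjamini-Hochberg adjustment was made within each event type. A call needed an adjusted p under 0.05 and a delta PSI at or beyond 0.1 in size. With 2 libraries against 2, an exact permutation test cannot go below 0.333, and no such test was run. The fit was tested on simulated data. Error is the spread between libraries, since reads counted without molecular identifiers are not separate molecules. All member exons and regions with a PSI between 0.05 and 0.95 in at least 1 library and a mean of at least 50 counts are printed by library, each by its event with the most counts. Of the pathway list, the 5 largest absolute delta PSI among events without overlap are named. The member genes and lists were chosen with earlier results of these data known. Exons were matched to GENCODE 44 lifted to GRCh37, and Python 3.11.15, pandas 2.3.3, numpy 2.4.6 and matplotlib 3.10.9 were used. Alternatives covered the test, pseudocount, count filter, delta PSI minimum, PSI definition, centring, replicate block, each library left out and the length of intron searched.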

Additional observations from a re-analysis of the deposited data

How the results depend on the processing

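The planned quasi-likelihood interaction test on counts was not run. The pairs of counts were split by replicate, and the quasi-binomial test was run on them as an alternative. For the pathway list, 0 skipped exon events and 0 of the alternative sites and retained introns were called under each alternative run. Its exon pairs gave 0 calls except without SCRM replicate 2, where 2 (in ZAK and DUSP10) were called. Member skipped exon events called were 1, but 0 with a pseudocount of 0.1, 2 with the replicate block (SPAG9 and MAP2K7) and between 0 and 2 with a library left out (0 without either SCRM library, 2 without RBFOXi replicate 1). Member exon pairs called were 0, but 1 with the block (the SPAG9 pair that holds the skipping junction) and 0 to 2 with a library left out. Over all genes, 27 skipped exon events became 52 with the quasi-binomial test, 1 with a pseudocount of 0.1, 44 with only 1 count per library required, 119 with the block and 1 to 69 with a library left out. The 0 exon pairs became 2 with a pseudocount of 1, 5 with centred log2 odds, 77 with the block and 4 to 1400 with a library left out, the highest without SCRM replicate 2, when SCRM replicate 1 is the lone control and is assumed to vary like the other group. The cause of these shifts was not tested. Libraries with the same replicate number also share a title suffix that the labels do not explain, and the replicate differences of the 2 groups correlated at 0.0836 to 0.118 across events. Whether the numbers mark a batch cannot be told from the labels, so the block was not made the main fit. Delta PSI of the SPAG9 39 nt exon ranged from -0.577 to -0.475 with a library left out. Of the 34 named exons and regions, 9 had another sign without SCRM replicate 1, 7 without SCRM replicate 2, 3 without RBFOXi replicate 1 and 4 without RBFOXi replicate 2. With the searched intron at 500 nt or whole, UGCAUG lay downstream of 8 and 20 of the 31 member exons (12.6% and 49.9% of all exons) and, with the whole intron, upstream of 17 (51.2%). GCAUG lay upstream of 9 and 22 (36.2% and 74.8%) and downstream of 10 and 25 (36.5% and 75.2%).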
